A study of Mus musculus with 4 samples.

Results

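The transcripts of Ly6c2, Ccr2, F13a1, Plac8 and Cx3cr1, 5 genes known from blood monocytes, were followed in macrophages grown from mouse bone marrow. Their probes were taken by gene name or by transcript accession, which gave 8 probes for 5 genes, out of 25107 named genes on the array. All 8 probes are reported, on all 4 arrays. The cultures came from male C57BL/6J mice that were either Batf2-/- (knockout, KO) or wild type (WT), and the cells had been differentiated from femoral marrow with macrophage colony-stimulating factor. Batf2 encodes an AP-1 family transcription factor with a leucine zipper, and R848, or resiquimod, is a synthetic agonist of TLR7, a receptor of endosomes. The groups were KO with R848 at 100 ng/ml for 8 h, KO untreated, WT with R848 at the same dose and time, and WT untreated. Total RNA was measured with 1 array per group, so no difference below has a replicate check and no test is given. The labels do not say how many mice stood behind each array.

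Monocytes form in bone marrow and are released into blood. Classical monocytes carry Ly6C and the chemokine receptor CCR2, which is needed for their exit from marrow, while the patrolling, non-classical kind carries little Ly6C and much CX3CR1. In culture with macrophage colony-stimulating factor, marrow precursors pass through a monocyte stage on the way to macrophages, and transcripts such as Ly6c2 and Ccr2 are known to decline as that maturation proceeds.

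The promoter windows of Ly6c2, its close relative Ly6c1 on the same chromosome, and Plac8 are printed because Ly6c2 and Ly6c1 moved together on the arrays and Plac8 had the largest genotype difference of the 5 genes in untreated cells. Each run is the 250 bases before the first start that RefSeq lists for the gene in GRCm38.p6, on the minus strand of the assembly and written in the direction of the gene. Capitals mark a PU.1 core motif, GAGGAAGT, PU.1 being the factor encoded by Spi1 that is required for the monocyte and macrophage lineage.
Ly6c2, chr15:75111972-75112221: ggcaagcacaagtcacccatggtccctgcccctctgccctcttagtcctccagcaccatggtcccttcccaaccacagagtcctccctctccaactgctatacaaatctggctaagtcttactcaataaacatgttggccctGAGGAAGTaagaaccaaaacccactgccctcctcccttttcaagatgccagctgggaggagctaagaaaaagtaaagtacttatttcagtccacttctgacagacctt
Ly6c1, chr15:75048838-75049087: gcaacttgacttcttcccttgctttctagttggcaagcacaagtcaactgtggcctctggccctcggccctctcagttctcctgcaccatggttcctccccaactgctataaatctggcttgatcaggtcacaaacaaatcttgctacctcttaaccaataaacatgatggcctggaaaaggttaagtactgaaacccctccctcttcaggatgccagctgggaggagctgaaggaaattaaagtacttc
Plac8, chr5:100572206-100572455: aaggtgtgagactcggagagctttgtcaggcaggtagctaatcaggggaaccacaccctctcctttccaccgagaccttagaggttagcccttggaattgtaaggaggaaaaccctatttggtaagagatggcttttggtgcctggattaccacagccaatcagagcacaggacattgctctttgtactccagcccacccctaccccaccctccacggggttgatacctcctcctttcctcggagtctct

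The Ly6c2 and Ly6c1 windows had 171 identical bases among 210 aligned ones, 81.4%, with 80 gap positions left out of that share. Pairs that use a second listed start gave 68.6% to 83.3%. On both strands 3 motifs were searched: the AP-1 site TGANTCA, present in 6.75% of 32851 RefSeq windows of the same length, the PU.1 core GAGGAAGT, present in 2.44%, and an interferon response element core (GAAA, any 2 bases, GAAA), present in 2.98%. In the first-listed windows of the 5 genes the only match was the PU.1 core of Ly6c2, which lay 108 bases before the first start and overlapped no other match. A second Ly6c1 start listed by RefSeq also has the PU.1 core in its window, 127 bases before that start, and a second Ly6c2 start has it at 142 and at 8 bases before. A match describes letters in the window and says nothing of a bound factor.

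The arrays were alike in brightness. The 75th percentile of the processed signal ran from 252 to 278 and the share of probes well above background from 60.6% to 71.4%, and no spot was saturated. All 4 arrays lay on 1 slide read in 1 scan. The probe for Batf2 itself had a signal of 10.8 in KO with R848, not well above background, and 26.7 in KO untreated, against 94.8 in WT with R848 and 34.1 in WT untreated. Whether that probe lies in the deleted stretch is unknown here, so it does not check the genotype labels. Of 14 macrophage markers, 13 or all 14 were well above background on each array, Cd163 being the exception in both R848 groups. The summed signal of 14 macrophage markers, in multiples of each array's 75th percentile, was 861 in KO with R848, 815 in KO untreated, 753 in WT with R848 and 721 in WT untreated. Csf1r, the receptor for macrophage colony-stimulating factor, was 0.28 higher on the log2 scale in KO than in WT untreated.

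Ly6c2 encodes a lipid-anchored surface protein recognised by the Ly6C antibodies used to sort classical monocytes. Its probe read 3101 in KO with R848 and 1543 in KO untreated, against 13839 in WT with R848 and 9251 in WT untreated. Both KO arrays lay below both WT arrays. Untreated, KO was 5.65-fold lower than WT, a log2 difference of -2.50, and with R848 it was 4.24-fold lower, a log2 difference of -2.09. In the authors' deposited table the log2 ratio of KO with R848 over WT with R848 was -2.06. Signals were higher with R848 than untreated in both genotypes, by 2.09-fold in KO and 1.57-fold in WT.

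Ly6c1 encodes a closely related protein, and its signal cannot be held apart from those of Ly6c2 with certainty. One Ly6c1 probe read 3030.0 in KO with R848 and 1540.1 in KO untreated, against 12563 in WT with R848 and 8697 in WT untreated. The pattern over the 4 arrays was almost that of the Ly6c2 probe. The other Ly6c1 probe read 1226 in KO with R848 and 869 in KO untreated, against 4301 in WT with R848 and 2379 in WT untreated. It differed less between the untreated genotypes, by -1.37 against -2.41 on the log2 scale for the first Ly6c1 probe. The authors' deposited table gives this second probe and the Ly6c2 probe the same transcript, so a value for either gene may hold signal of both.

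Ccr2 encodes the receptor for the chemokines of the MCP group, which draws classical monocytes out of marrow and into inflamed tissue. Its probe read 14.6 in KO with R848, not well above background, and 174 in KO untreated, against 88.6 in WT with R848 and 722 in WT untreated. The order therefore ran WT untreated, KO untreated, WT with R848 and KO with R848. Each step was larger than 2 SD of the spread between repeat spots, which was measured on probes well above background on all 4 arrays. The last step rests on a signal at background, with a scanner error of 24.0%. Untreated, KO was 3.91-fold lower than WT. With R848, KO was 5.77-fold lower than WT. The KO signal of 14.6 lay just above the lowest signal well above background on that array, 14.5. It was used as measured, so this fold is not a bound. The difference became -0.89 on the log2 scale, short of 2-fold, under normexp background correction with its offset of 50. The signal was lower with R848 than untreated, the largest response of the 5 genes in each genotype. The log2 difference was -3.52 in KO, resting on the same background signal, and -2.96 in WT, a 7.78-fold difference. Under normexp these responses were -1.57 in KO, where F13a1 stood at -1.56, and -2.30 in WT.

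Cx3cr1 encodes the receptor for fractalkine, which holds and guides non-classical monocytes and marks monocyte-derived cells in many tissues. The brighter of its 2 probes read 1436 in KO with R848 and 1002 in KO untreated, against 3541 in WT with R848 and 3382 in WT untreated. The KO arrays were lower than the WT arrays, by 3.18-fold untreated and 2.34-fold with R848. The weaker probe read 41.9 in KO with R848 and 58.3 in KO untreated, against 132 in WT with R848 and 204 in WT untreated. Both probes thus had KO below WT by more than 2-fold, the weaker one by 3.30-fold untreated and 2.98-fold with R848. On the R848 response they disagreed in sign: the brighter probe was 0.58 higher in KO and 0.13 higher in WT on the log2 scale, and the weaker was -0.42 in KO and -0.57 in WT. The 0.13 lay within 2 SD of the repeat-spot spread, which was 0.153 for that comparison.

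F13a1 encodes the catalytic A subunit of coagulation factor XIII, a transglutaminase that cross-links fibrin and is made by monocytes and some macrophages. Its brightest probe read 90.6 in KO with R848 and 389.9 in KO untreated, against 480.0 in WT with R848 and 1664 in WT untreated. KO was 4.03-fold lower than WT untreated and 5.04-fold lower with R848. With R848 this probe was lower than untreated in both genotypes, 4.14-fold in KO and 3.31-fold in WT, and WT with R848 came within 0.28 on the log2 scale of KO untreated.

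The other F13a1 probes were dim. One read 3.42 in KO with R848, not well above background, and 23.7 in KO untreated, against 26.6 in WT with R848 and 85.4 in WT untreated. It was 3.40-fold lower in KO than in WT untreated and at least 1.74-fold lower with R848, and its KO untreated and WT with R848 signals were within 2 SD of the repeat-spot spread. The third, designed to a cDNA clone, read 20.5 in KO with R848 and 25.8 in KO untreated, against 37.6 in WT with R848 and 50.8 in WT untreated. Its genotype differences, -0.89 untreated and -0.80 with R848 on the log2 scale, did not reach 2-fold, although all 3 probes had KO below WT.

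Plac8 encodes a small cysteine-rich protein, also called onzin, that is abundant in myeloid cells. Its probe read 299 in KO with R848 and 574 in KO untreated, against 2031 in WT with R848 and 4620.3 in WT untreated. KO was 7.59-fold lower than WT untreated, the largest genotype difference of the 5 genes there, and 6.45-fold lower with R848. The Ccr2 difference with R848 rests on a KO signal not well above background. Plac8 ranked 38 from the lowest of 20300 genes in the untreated comparison and 37 of 18768 with R848. With R848 the signal was 1.84-fold lower than untreated in KO, short of 2-fold, and 2.17-fold lower in WT. The WT value became -0.96 on the log2 scale, just short of 2-fold, under median centring.

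**Figure D1:**
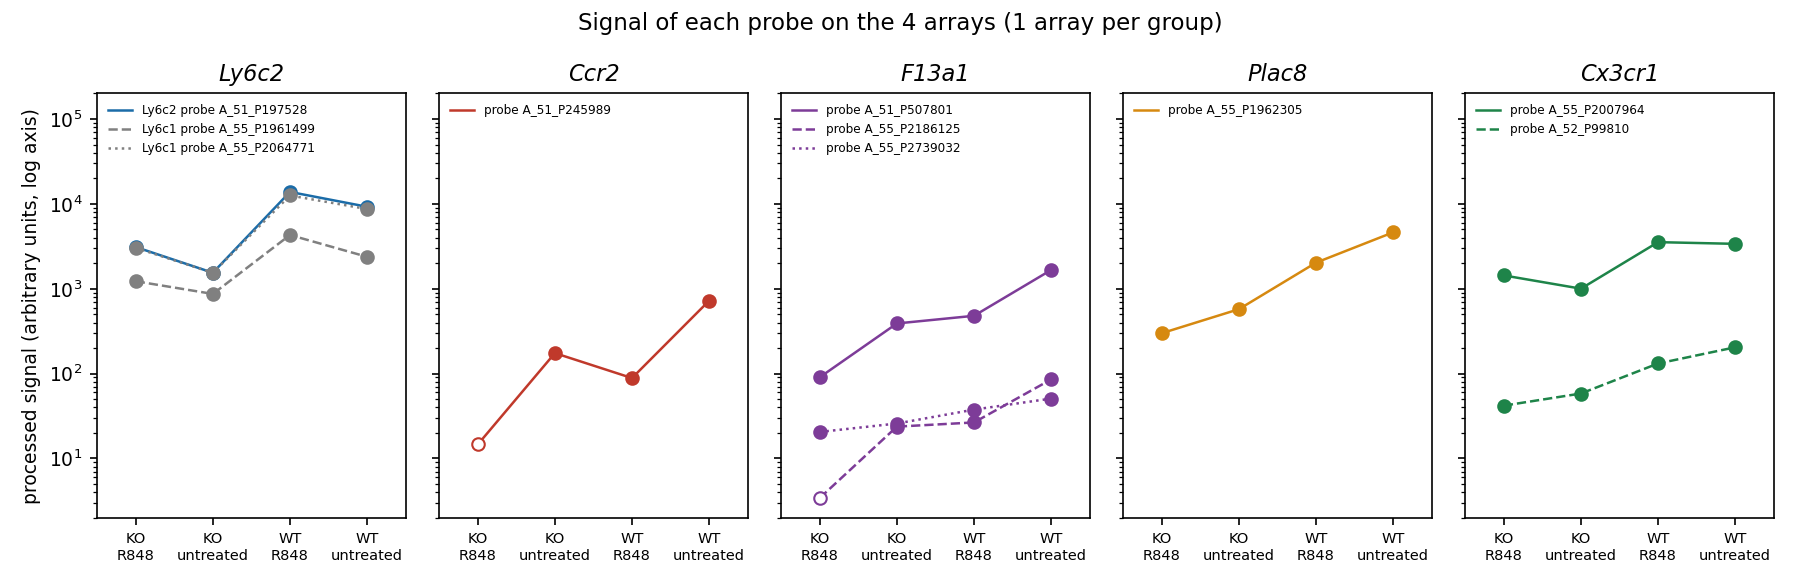
Processed signal of each probe on the 4 arrays, on a log axis, with KO arrays left of WT arrays. Each point is 1 array, lines join points of 1 probe, hollow points are not well above background, and grey points are the 2 Ly6c1 probes. Every Ly6c2, Ccr2, F13a1, Plac8 and Cx3cr1 probe was lower in KO than in WT in the matched condition.

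Set side by side, all 5 genes at their brightest probe were at least 2-fold lower in KO than in WT in both conditions. The genes were chosen by their signals on these same arrays, so these counts and medians describe the choice and support nothing. Across all measured genes 3.18% of 20300 were at least 2-fold lower and 2.8% higher in KO untreated, and 2.45% of 18768 lower and 2.34% higher with R848. Among genes at or above the 75th percentile on at least 1 array, 2.18% were lower untreated and 1.49% with R848. The median log2 difference of the 5 genes was -2.01 untreated, where that of all genes was 0.06, and -2.33 with R848, where that of all genes was 0.04. By probe, 7 of 8 passed 2-fold untreated and 6 of 8 with R848, and all 8 had KO below WT each time. The spread between repeat spots, as 2 SD, was 0.147 untreated and 0.138 with R848, and it holds technical error alone, not variation between cultures. In RNA of whole cultures, fewer cells of a type and less RNA per cell cannot be told apart.

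The R848 responses split the 5 genes. In KO cells Ccr2 and F13a1 were at least 2-fold lower with R848 and Ly6c2 was 2.09-fold higher, so 2 genes were lower and 1 higher. Of all genes measured in KO, 6.58% were at least 2-fold lower and 6.84% higher. In WT cells Ccr2, F13a1 and Plac8 were at least 2-fold lower and none was higher, where 7.01% of all genes were lower and 6.19% higher. Ly6c2 in KO lay near the 2-fold limit: its log2 response of 1.06 was 0.95 under quantile normalization. Averaging the 3 F13a1 probes gave a KO response of -0.99, short of 2-fold.

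None of the 5 responses differed by 2-fold between genotypes, in either direction, where 4.18% of all genes had a lower response and 3.62% a higher one in KO. The difference, KO response minus WT response, was 0.41 for Ly6c2, 0.44 for Cx3cr1 and 0.24 for Plac8, and -0.32 for F13a1, each outside 2 SD of the repeat-spot spread, 0.205. At the weaker Cx3cr1 probe the difference was 0.15, inside that spread. The spread comes from 289 probes with repeat spots well above background on all 4 arrays. Each member probe has 1 spot, with a scanner error of at least 10% per array. Lying outside the spread therefore does not settle these differences. For F13a1 the direction was not settled: the difference was 0.07 under normexp and 0.24 with the mean over probes, and 0.09 at the cDNA clone probe. Ccr2 gave -0.56, resting on a KO signal with R848 at background, and 0.73 under normexp, so its direction was not settled either. These responses and the genotype differences share their arrays, so a low or high array would move both.

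**Figure D2:**
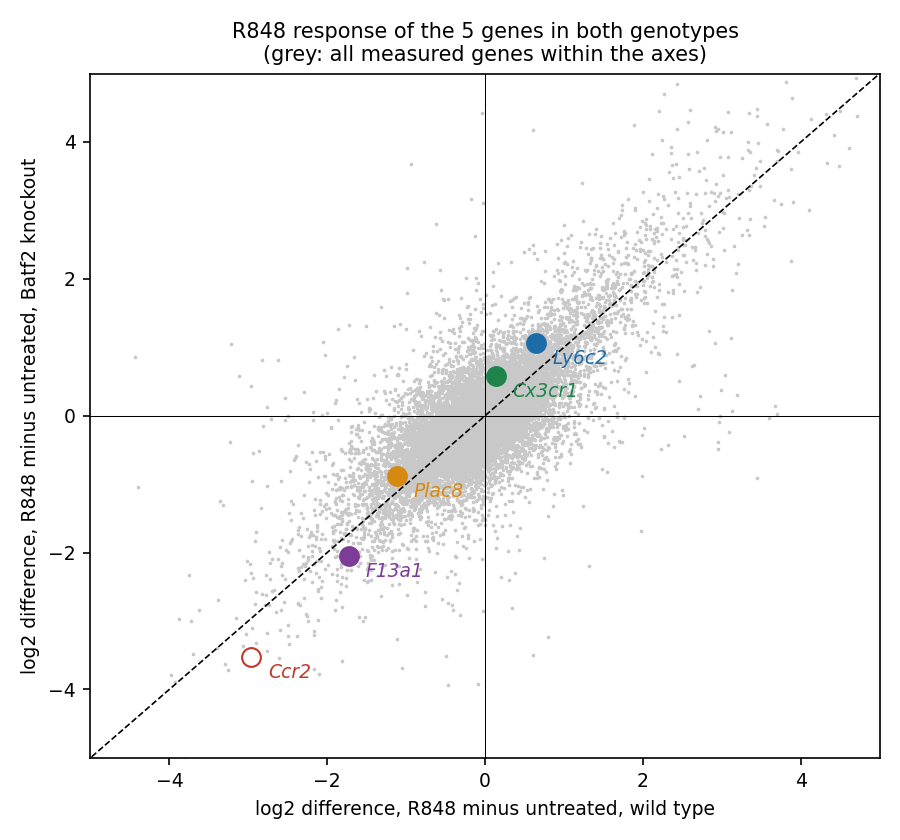
Log2 response to R848 in KO (vertical) and in WT (horizontal) for the 5 genes at their brightest probe, over all measured genes in grey. The dashed line marks equal responses, and the hollow Ccr2 point rests on a KO signal with R848 not well above background. Ly6c2 and Cx3cr1 lay above 0 in both genotypes, and Plac8, F13a1 and Ccr2 below 0 in both.

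The 5 genes did not share 1 pattern over the arrays. Likeness was measured as the root mean square difference of log2 values, each gene centred on its own mean over the 4 arrays. It was 0.49 between Ly6c2 and Cx3cr1 and 0.56 between F13a1 and Plac8, and 1.39 between Ly6c2 and F13a1. The Cx3cr1 values here are those of its brighter probe. The weaker Cx3cr1 probe, for which likeness was not measured, ordered the arrays as Plac8 did: WT untreated, WT with R848, KO untreated, KO with R848. Between Ly6c2 and Ccr2 the root mean square difference was 2.06, a value that rests in part on the Ccr2 signal at background in KO with R848. The gene nearest to Ly6c2 was Ly6c1 at 0.05, with Impact next at 0.26 and Ly6f at 0.27. For Ccr2, Lsr was nearest at 0.60, then F13a1 at 0.68 and Cd34 at 0.69, but these distances and ranks rest on its KO signal with R848, which was not well above background. F13a1 had Svip at 0.09, Cd34 at 0.14 and Mns1 at 0.31. Plac8 was nearest to Paqr9 at 0.18, Gata2 at 0.22 and Cd5l at 0.24. In KO with R848 the signals of Svip, Cd34, Mns1 and Paqr9 were dim, at 17.7, 18.9, 17.1 and 15.3. The lowest signal well above background on that array was 14.5. Cx3cr1 was nearest to Hsd11b1 at 0.09, Ccl8 at 0.10 and Egln3 at 0.14, and 27 genes lay within 0.25 of it. With 4 arrays these values are a description and carry no test.

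Ligands of the 2 receptors were measured on the same arrays. Ccl2, the main CCR2 ligand, read 500.2 in KO with R848 and 175 in KO untreated, against 340.1 in WT with R848 and 179.9 in WT untreated, so it was 1.57 higher on the log2 scale with R848 in KO and 0.99 in WT. Ccl7 and Ccl12 were not well above background on either untreated array and at least 2-fold higher with R848 in both genotypes. With R848, Ccl7 was higher in KO than in WT by 1.27 on the log2 scale, at signals of 60.8 and 26.55. Ccl8 was lower in KO than in WT, at -1.61 untreated and -1.31 with R848 on the log2 scale. Its KO signals were dim, 20.7 untreated and 24.7 with R848. Cx3cl1, which encodes fractalkine, was at 0.03 untreated and -0.15 with R848 for KO against WT.

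Of 19 other genes of the classical monocyte, 6 were at least 2-fold lower in KO untreated and none was higher, with a median log2 difference of -0.11. Those lower were Ly6c1 at -2.41, the haemoglobin-binding protein gene Hp at -1.63, Tmem176b at -1.46, the guanine deaminase gene Gda at -1.25, the lectin gene Clec4e at -1.04 and the chitinase-like gene Chil3 at -1.02. The Ly6c1 value may hold Ly6c2 signal. Clec4e rests on dim untreated signals, 18.5 in KO and 40.2 in WT. The fibronectin gene Fn1 was at 0.58, the versican gene Vcan at 0.41 and Ms4a6c at 0.05. With R848, 3 of the 19 were lower, Ly6c1, Hp and Chil3, and Vcan was higher at 1.09, with a median of -0.08. The summed signal of the 19 genes was 1241 in KO with R848, 1240 in KO untreated, 1261 in WT with R848 and 1214 in WT untreated, in multiples of the 75th percentile. Most of that sum was 1 gene, Ms4a4c, and without it the sum was 423 in KO with R848 and 426 in KO untreated, against 521 in WT with R848 and 499 in WT untreated. For the 5 genes the sum was 19.6 and 14.0 in KO, against 75.3 and 70.6 in WT, with R848 and untreated in that order, and without Ly6c2 it was 7.29 and 8.16 in KO, against 23.1 and 37.4 in WT.

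Among 20 genes of the non-classical monocyte, 3 were at least 2-fold lower and 2 higher in KO untreated, with a median of -0.23. Lower were the adhesion receptor gene Adgre4 at -1.76, the peptidoglycan-binding protein gene Pglyrp1 at -1.64 and Spn, which encodes CD43, at -1.55. Higher were the integrin gene Itgax at 1.47 and the survival gene Bcl2a1d at 1.01. Nr4a1, the nuclear receptor required for the non-classical kind, stood at -0.33. With R848, the same comparison had Pglyrp1, Spn and Adgre4 lower, 3 of the 20, and none higher, with a median of -0.04.

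Of 12 transcription factors of the lineage, Gfi1, a repressor that acts in granulocyte development, was lower in KO at -2.23 untreated and -1.62 with R848, and no other passed 2-fold in either condition. Spi1 stood at 0.01, Irf8 at 0.01 and Klf4 at -0.42 untreated. Within the Ly6 family 4 of 8 genes were lower in KO untreated: Ly6c1 at -2.41, Ly6f at -2.05, Ly6e at -1.93 and Ly6a at -1.76. Here too the Ly6c1 value may hold Ly6c2 signal. Ly6k was higher, by at least 1.18, and its WT untreated signal was not well above background. Ly6d at -0.11, Ly6h at -0.12 and Ly6i at -0.15 did not reach 2-fold. With R848, 5 of the 8 were lower, the same 4 and Ly6k, whose KO signal was then not well above background, and none was higher.

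Markers of other marrow cells were lower in KO beside the 5 genes. Of 16 granulocyte and progenitor markers, 11 were at least 2-fold lower untreated (median -1.96) and 10 with R848 (median -1.68), and none was higher. The largest differences untreated were the granule protease gene Ctsg at -4.02, the myeloperoxidase gene Mpo at -3.89, the neutrophil elastase gene Elane at -3.58 and Ms4a3 at -3.01, while the stem cell factor receptor gene Kit and Myb were both at -2.69. Late granule genes were nearer: Ngp at -0.89, Camp at -0.39 and Ltf at -0.16. The summed signal of the list was 302 and 327 in KO, against 478 and 619 in WT, with R848 and untreated in that order, and all 16 were well above background on every array. Without S100a9, the brightest of them, it was 122 and 137 in KO, against 225 and 333 in WT. The part of these markers in the differences of the 5 genes was not tested.

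Of 11 basophil and mast cell markers measured untreated, 6 were at least 2-fold lower in KO (median -1.06), and of 9 measured with R848 5 were (median -1.95), with none higher in either. The basophil protease gene Mcpt8 was at -5.56 and Prss34 at -4.44 untreated, whereas the mast cell protease gene Cma1 stood at 0.78, Il4 at 0.67 and Cd200r3 at 0.26. The untreated signals of Cma1, Il4 and Cd200r3 were dim: 35.9, 29.9 and 29.0 in KO and 22.2, 19.9 and 25.6 in WT. The summed signal was 3.02 and 2.61 in KO, against 11.3 and 20.1 in WT, with R848 and untreated in that order. Not well above background were Mcpt8, Cpa3, Fcer1a, Ms4a2, Il4 and Cd200r3 in KO with R848, Cpa3 in KO untreated, and Il4, Cd200r3 and Cma1 in WT with R848. Their part in the result was not tested either.

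In the untreated comparison dendritic cell markers had 2 of 12 lower and 1 higher, lymphocyte markers 2 of 12 lower, and erythroid and megakaryocyte markers 3 of 10 lower. Of the 14 macrophage markers 1 was lower, the haemoglobin scavenger receptor gene Cd163 at -2.34, and none was higher, with a median of 0.22. With R848 the counts were 1 of 10 dendritic cell markers lower, 2 of 12 lymphocyte markers lower and 1 higher, 0 of 10 erythroid and megakaryocyte markers in either direction (median 0.02, against -0.73 untreated), and 1 of 13 macrophage markers higher.

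**Figure D3:**
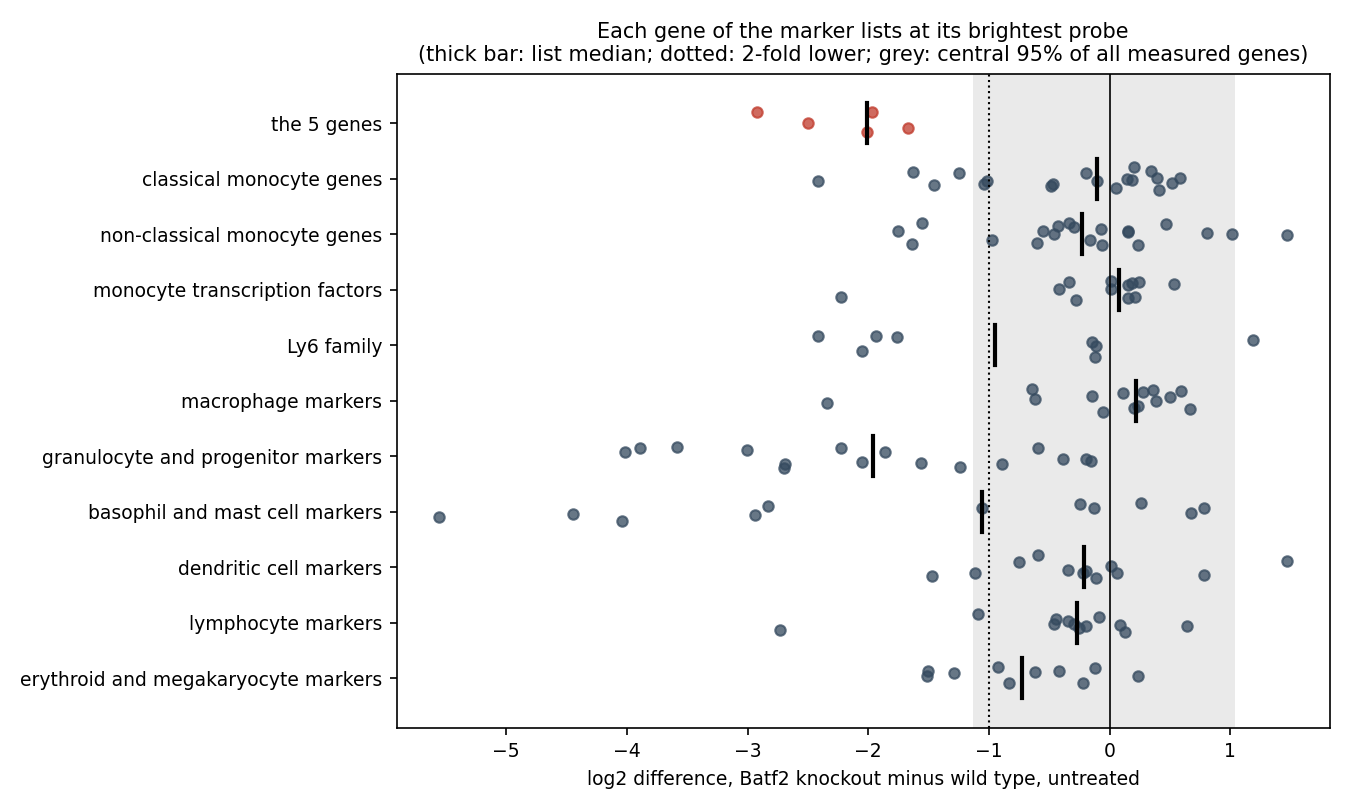
Log2 difference, KO minus WT, untreated, of each gene in the marker lists at its brightest probe. Points are genes, thick bars are list medians, the dotted line is 2-fold lower, and the grey band holds the central 95% of all measured genes. The 5 genes have a median of -2.01, granulocyte and progenitor markers -1.96 and classical monocyte genes -0.11.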

How the data were processed

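Per the submitters' processing notes, the scanner images went through Agilent Feature Extraction 11.5.1.1. The deposited processed signal is an intensity on a linear scale, background-subtracted and detrended within each array, per the file headers. The authors also deposited scaled intensity for 39374 spots and log2 ratios between arrays. In that table each array's processed signal is multiplied by a single factor. Here log2 of the processed signal was centred on each array's 75th percentile, outlier spots were left out, and each gene was read at its brightest probe (Python 3.11.15, pandas 2.3.3). A dimmer value not well above background was raised to that array's floor, the lowest signal well above background, and the fold is written "at least". Where such a value already lay above the floor, as for Ccr2 in KO with R848, it was used as measured. A difference of 2-fold was called. With 1 array per group there was no test. The calling step was tested on simulated data with known differences well past 2-fold, which checks its arithmetic and not the differences reported here. Normexp used limma 3.58.1 on median spot signals in place of mean signals. The members and gene lists were chosen with earlier results of these data known. Named genes were the 5 members at every probe, Batf2, list genes at least 2-fold different with the largest differences and up to 4 that were not, and the 3 genes nearest to each member in pattern. Precision is limited by having 4 arrays.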

Additional observations from a re-analysis of the deposited data

How the results depend on the processing

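The 9 alternatives were normexp, median centring, quantile normalization, the authors' table, no filter on dim probes, only probes well above background on all 4 arrays, the mean over probes, outlier spots kept, and locally bright areas left out. The counts of members past 2-fold stayed within 1.5 times in 86 of 90 cases, and no called value changed sign. Many of those counts were 0 under every setting. No member probe lay in a locally bright area, so leaving such areas out could act only through the scaling. Changes within the limit include 5 to 4 for KO below WT with R848 under normexp. The count lower in the WT response went from 3 to 2 under median centring. The 4 counts that moved past the limit were all in the R848 response of KO cells. The number of genes at least 2-fold lower was 1 in place of 2 under the authors' table and with only probes well above background on all 4 arrays, both of which lack Ccr2, and with the mean over probes, where F13a1 stood at -0.99. The number at least 2-fold higher was 0 in place of 1 under quantile normalization, where Ly6c2 stood at 0.95. Of 215 single values 40 moved by more than the spread between repeat spots. Under normexp, whose offset of 50 exceeds the Ccr2 signal in KO with R848, the genotype difference of Ccr2 with R848 was -0.89, short of 2-fold, and its difference between responses was 0.73. The F13a1 difference between responses, -0.32, was 0.07 under normexp and 0.24 with the mean over probes. Median centring put the WT response of Plac8 at -0.96 and shifted the median response of all genes by 0.14 in KO and 0.16 in WT. The mean over probes put the WT response of Cx3cr1 at -0.22. Signals near background limit Ccr2 and the weaker F13a1 probes. No paired analysis was possible because each group has 1 array.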
